A study of Mus musculus with 8 samples.

Results

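The step from late night to the middle of the subjective day was described from 4 of the 8 libraries of a circadian series on mouse liver (wild type, C57/BL6). The late night libraries were CT23 and CT47, and the mid-day libraries were CT29 and CT53, each collected 6 h after its late night partner. Circadian time (CT) counts hours of the internal day from the moment at which the lights would have come on, so both pairs share their phases, CT23 and CT5, on consecutive days. The members were chosen by these labels and by no measured value. A gene counted as changed when it passed a test over the libraries and moved the same way on both days.

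The study sampled liver polyadenylated RNA every 6 h, from CT23 to CT65. All groups had the same strain, wild-type genotype, tissue and lighting: a week of alternating light and dark, each lasting 12 h, followed by a day of constant darkness before collection. Each library pooled RNA of 3 animals in equal parts, each time had 1 library, and the labels used here give neither sex nor age. The p-values below therefore reflect how single pooled libraries scatter around their phase means, not how animals differ. In pooled tissue, fewer cells of a type and less RNA per cell cannot be told apart.

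The 4 libraries held 12 to 13 M (mega) reads each, of which 6.53 to 7.59 M fell on the exons of the named genes. Reads in introns numbered 14.2 and 13.1 per 100 gene reads in CT23 and CT47, and 12.4 and 12.5 in CT29 and CT53. The CT35 library, which enters the estimate of the spread, was deeper, at 22.9 M reads. It also differed from CT59, the library of the same phase, in its make-up. Intron reads per 100 gene reads were 7.45 in CT35 and 14.4 in CT59, and spliced reads at junctions 102 and 83.2. The hepatocyte markers stood at 26550 to 36590 RPKM for Alb (serum albumin) in the 4 libraries, and 15 of 15 listed hepatocyte markers were measured.

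The liver clock is a loop in which the activators BMAL1 (encoded by Arntl), CLOCK and NPAS2 bind E-boxes and drive genes of their own repressors, the PER and CRY proteins, together with the REV-ERB receptors (Nr1d1, Nr1d2) and the factor DBP. REV-ERB proteins in turn repress Arntl, Npas2, Cry1 and Nfil3 through RORE sites, on which ROR receptors act as activators. The loop is known to pass rhythm on to metabolic genes of the liver.

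Values are reads per kilobase of transcript and M reads of the library (RPKM), for 1 transcript per gene. The step of a gene is the difference between mid-day and late night in log2(RPKM + 0.5), averaged over both days, with its standard error (SE), and folds are taken from it, so that those of weak genes come out too small. A gene was called when the adjusted p of limma's moderated test was under 0.05 and both days agreed in sign. Of 10930 genes tested, 39 were called (0.357%), 19 higher at CT5 (0.174%) and 20 lower (0.183%), and 820 had an unadjusted p under 0.05. Every one of the 39 changed at least 2-fold on each of the days, and in none did the late night and mid-day libraries overlap, which the test on the same values selects for; 36.4% of all genes tested had no overlap either. At least 2-fold steps on both days were seen in 45 genes upward (0.412%) and 38 downward (0.348%), with called and uncalled genes together. The median step was 0.017 over all genes tested. The median fold of the called genes was 4.02 upward and 3.21 downward.

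**Figure D1:**
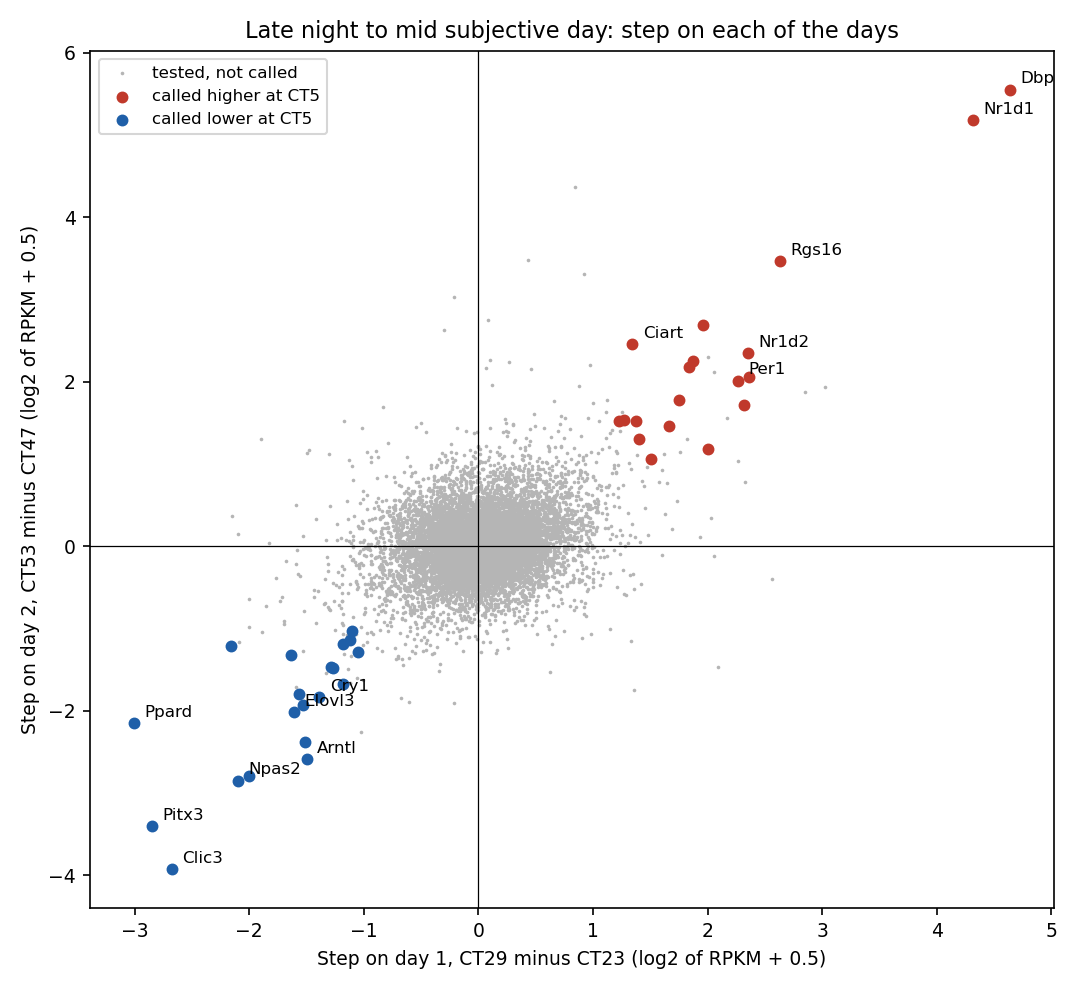
Step of each of 10930 genes from late night to mid subjective day on the first day (horizontal, CT29 minus CT23) and the second day (vertical, CT53 minus CT47), in log2 of RPKM + 0.5. Grey points were not called, the 19 red points were called higher and the 20 blue points lower at CT5, and Dbp and Nr1d1 lie farthest up on both days.

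Of the 3 measured activators 2 fell, Arntl and Npas2. Arntl (mm9, chr7:120350979-120457636), whose product BMAL1 is the indispensable partner of CLOCK, stood at 11.6 and 12.9 RPKM at late night and at 3.78 and 1.72 RPKM at mid-day. It was high in both late night libraries and still fell further, to 0.271 and 0.673 RPKM, at CT11. Its step was -2.04 (SE 0.33, adjusted p = 0.0285), a 4.13-fold drop. Npas2, a paralog of Clock, was at 5.48 and 4.08 RPKM at late night against 0.895 and 0.135 RPKM at mid-day (step -2.48, SE 0.32, adjusted p = 0.00765). Both late night libraries of Npas2 lay above all other 6 libraries, the highest of which was CT29. Clock itself read 7.25 and 5.73 RPKM at late night and 7.19 and 5.14 RPKM at mid-day, and its step of -0.08 was not called (SE 0.24, adjusted p = 0.991). The Arntl call was lost without CT23, CT47 or CT53 (adjusted p up to 0.224), and that of Npas2 without CT23 (0.0713) and in both count tests, edgeR and DESeq2.

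Among the REV-ERB and ROR receptors, 2 of 4 measured rose and none was called lower. Nr1d1 (REV-ERB alpha; mm9, chr11:98629249-98636556) went from 4.94 and 3.75 RPKM to 108 and 154 RPKM, a 26.9-fold rise (step 4.75, SE 0.37, adjusted p = 0.000453), and was back at 15.9 and 31.0 RPKM by CT11. Its highest levels of the series were the mid-day ones. Nr1d2 (REV-ERB beta; mm9, chr14:19036570-19071620) went from 1.09 and 1.003 RPKM to 7.63 and 7.17 RPKM (step 2.35, SE 0.21, adjusted p = 0.000631) and stayed at 7.36 and 8.61 RPKM at CT11. Both calls held whichever single library was left out. Rora, an activator at RORE sites, read 7.48 and 7.69 against 7.08 and 6.02 RPKM (step -0.20, not called).

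The repressors of the loop split. Per1 (mm9, chr11:68914011-68919798) rose from 1.58 and 2.92 RPKM to 9.51 and 13.3 RPKM (step 2.14, SE 0.36, adjusted p = 0.0334). Cry1 (mm9, chr10:84594445-84647799) fell from 4.05 and 4.99 RPKM to 1.24 and 1.04 RPKM (step -1.61, SE 0.21, adjusted p = 0.00765), its lowest levels among the 8 libraries. Ciart, which encodes the repressor CHRONO, rose from 0.757 and 0.765 RPKM to 2.69 and 6.45 RPKM (step 1.90, SE 0.33, adjusted p = 0.0362) and had not reached its height, 29.7 and 27.3 RPKM at CT11. For Per1 and Ciart levels were higher again 6 h later on both days, whereas for Cry1 the mid-day libraries were the trough. Per2 read 4.67 and 4.31 RPKM against 3.18 and 5.59 RPKM, with groups that overlapped (step -0.08, adjusted p = 0.996), and Per3 read 0.545 and 0.466 RPKM against 1.59 and 2.72 RPKM (step 1.37, adjusted p = 0.11). Cry2 read 3.09 and 4.99 against 5.35 and 7.41 RPKM (step 0.61, adjusted p = 0.589). Of 11 measured PER, CRY and partner genes, 2 rose and 1 fell, and the ubiquitin ligase and kinase genes Fbxl21, Btrc, Csnk1d and Csnk1e had steps of 0.03, 0.12, 0.19 and 0.25, none called. Without 1 library the Per1 call was lost for CT23, CT29, CT47 or CT53 (adjusted p up to 0.277), that of Ciart for CT23, CT47 or CT53 (up to 0.224), and that of Cry1 for CT29, CT47 or CT53 (up to 0.105).

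Of the D-box factors Dbp rose and Nfil3 fell, and in the DEC family Bhlhe41 rose. Dbp (mm9, chr7:52960994-52965484), an activator at D-boxes, had the largest step of all 10930 genes: 0.671 and 1.07 RPKM at late night, from 7 and 11 reads, and 28.6 and 73.0 RPKM at mid-day, from 276 and 727 reads. The rise was 34.2-fold (step 5.10, SE 0.44, adjusted p = 0.000631) and held without any single library. The transcript that stands for Dbp shares 56.2% of its exon bases with Sphk2, and reads spliced across the introns of Dbp alone numbered 0 and 1 at late night and 59 and 186 at mid-day. Nfil3, the repressor that competes for D-boxes, moved the opposite way, from 15.5 and 13.4 RPKM to 3.09 and 5.53 RPKM (step -1.69, SE 0.27, adjusted p = 0.0279). Tef, a paralog of Dbp, read 4.57 and 6.41 against 11.6 and 21.0 RPKM (step 1.45, adjusted p = 0.11) and Hlf 79.3 and 71.2 against 95.7 and 107 RPKM (step 0.42, adjusted p = 0.866). For Tef and Hlf the groups did not overlap, as in 36.4% of all genes tested, and neither was called. The chosen transcript of Hlf is short, at 245 bases. Reads spliced across Hlf introns numbered 65 and 67 at late night and 56 and 71 at mid-day, so those overlapped. Bhlhe41 (DEC2), a repressor at E-boxes, rose from 0.757 and 0.491 RPKM to 4.39 and 5.88 RPKM (step 2.32, SE 0.29, adjusted p = 0.00765), and its relative Bhlhe40 (DEC1) read 19.8 and 18.8 against 37.7 and 39.3 RPKM (step 0.98, adjusted p = 0.241). The Nfil3 call was lost without CT23, CT29 or CT47 (up to 0.225), and that of Bhlhe41 without CT47 or CT53 (up to 0.0936).

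**Figure D2:**
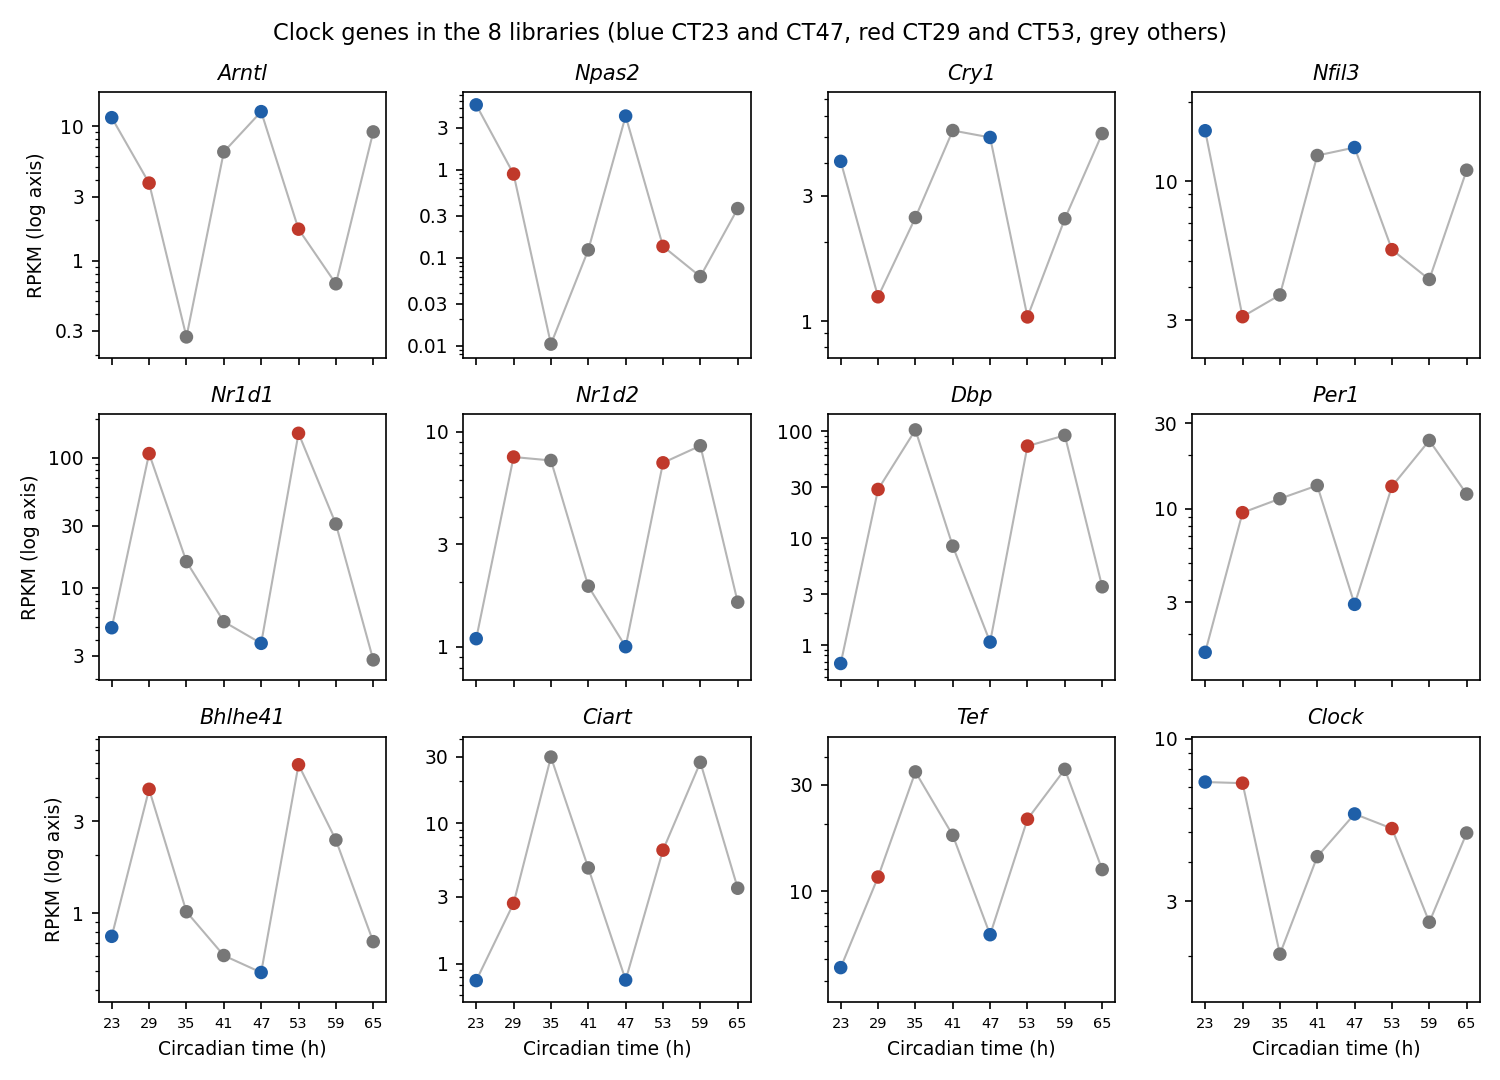
Level of 12 clock genes in RPKM (log axis, 1 panel per gene with its own range) against circadian time in h, 1 point per pooled library. Blue points are late night (CT23, CT47), red points mid-day (CT29, CT53) and grey points the other phases: Nr1d1 and Bhlhe41 peak at the red points, Dbp and Ciart peak 6 h later, and Cry1 has its lowest points there.

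Counted by the element through which they are regulated, 6 of 13 measured genes listed as RORE targets were called, all of them lower (Npas2, Cdkn1a, Arntl, Elovl3, Nfil3 and Cry1; list median -1.32), against 0.183% of all genes tested. Of 21 genes listed as E-box or D-box targets, 6 were called, all higher (Dbp, Nr1d1, Nr1d2, Bhlhe41, Per1 and Ciart; list median 0.42), against 0.174%. These lists share members with the clock lists above and were chosen with earlier results of these data known. The counts therefore describe the listed genes and are no test of the elements. Not all listed targets were called in exons: Elovl5 of the RORE list had a step of -0.23 and Por of the E-box or D-box list 0.45. Some members moved against the called genes of their list. On both days 9 RORE targets were negative and 3 positive, the highest step being that of Ulk1 (0.83, not called). Of the E-box or D-box targets 12 were positive and 3 negative on both days, the lowest step being that of Cyp7a1 (-1.33, not called). The introns of Elovl5 were called lower, with 37 and 22 reads at late night and 3 and 7 at mid-day (intron step -1.35, adjusted p = 0.0156). Those of Por were not called.

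The promoters of called genes were searched for the letters of these elements, since the called genes include textbook targets of each. Windows of RefSeq (GRCm38.p6) run from 250 bases before to 50 bases after the annotated start, and 13 of the 19 higher and 16 of the 20 lower genes had one. The E-box CACGTG, which reads the same on both strands, was in windows of 4 of the 13 higher genes (30.8%: Bhlhe41, Ciart, Lpin2 and Per1) and 3 of the 16 lower ones (18.8%: Cry1, Lonrf3 and Ppp1r3c), against 12.1% of 8517 tested genes with a window. The RORE, searched on both strands as AGGTCA preceded by AA, any base and T, was in the window of 1 lower gene, Arntl, against 0.188% of tested genes. The D-box letters TTANGTAA, on both strands, were in no called gene's window, against 1.96% of tested genes. A total of 4 windows are shown because they carry these letters in genes that moved in opposite directions, with the matches in capitals. Ciart (chr3:95882179-95882478, minus strand) holds 3 E-boxes, 116, 58 and 44 bases before its start, and Per1 (chr11:69098699-69098998, plus strand) holds 1, 166 bases before. Cry1 (chr10:85185005-85185304, minus strand), which fell, also holds 1 E-box, 60 bases before its start. Arntl (chr7:113207261-113207560, plus strand) holds the RORE as AAGTAGGTCA, 27 bases after its start.
Ciart: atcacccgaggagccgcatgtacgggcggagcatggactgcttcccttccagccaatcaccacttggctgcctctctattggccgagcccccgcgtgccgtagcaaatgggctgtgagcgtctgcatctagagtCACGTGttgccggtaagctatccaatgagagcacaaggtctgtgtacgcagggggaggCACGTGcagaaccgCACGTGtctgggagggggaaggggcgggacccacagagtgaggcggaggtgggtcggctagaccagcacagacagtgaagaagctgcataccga
Per1: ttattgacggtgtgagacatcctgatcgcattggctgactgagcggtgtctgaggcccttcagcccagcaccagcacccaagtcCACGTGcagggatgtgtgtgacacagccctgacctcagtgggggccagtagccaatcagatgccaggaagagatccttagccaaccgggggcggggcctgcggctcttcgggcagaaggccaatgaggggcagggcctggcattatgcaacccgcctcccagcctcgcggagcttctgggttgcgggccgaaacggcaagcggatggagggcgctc
Cry1: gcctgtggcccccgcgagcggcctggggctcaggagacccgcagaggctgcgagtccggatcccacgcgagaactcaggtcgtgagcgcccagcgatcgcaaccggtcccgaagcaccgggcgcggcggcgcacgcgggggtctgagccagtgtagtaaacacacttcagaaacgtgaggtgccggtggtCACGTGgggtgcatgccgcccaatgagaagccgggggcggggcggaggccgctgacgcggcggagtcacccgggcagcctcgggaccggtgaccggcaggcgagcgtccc
Arntl: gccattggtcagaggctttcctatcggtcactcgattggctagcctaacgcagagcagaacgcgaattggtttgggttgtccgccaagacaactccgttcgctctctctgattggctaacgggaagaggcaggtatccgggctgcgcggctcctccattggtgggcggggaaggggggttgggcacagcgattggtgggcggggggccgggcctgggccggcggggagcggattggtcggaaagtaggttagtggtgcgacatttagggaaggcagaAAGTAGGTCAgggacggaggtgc
These matches describe the letters of the windows, and binding was not measured here.

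Rgs16, a brake on G protein signalling, was near the limit of detection at late night, with 4 and 1 reads (0.132 and 0.0332 RPKM), and had 96 and 157 reads at mid-day (3.42 and 5.41 RPKM; step 3.05, SE 0.33, adjusted p = 0.00297). Its step ranged from 2.30 to 5.69 over the other settings, which include other pseudocounts, and the call was lost without CT53 (adjusted p = 0.0585). Clec2h, a C-type lectin-like gene, rose from 1.10 and 1.26 RPKM to 7.75 and 6.82 RPKM (step 2.21, SE 0.22, adjusted p = 0.00158) and kept its call without any single library.

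Lpin2, a phosphatidate phosphatase of triglyceride synthesis, rose from 13.9 and 18.8 RPKM to 50.9 and 86.5 RPKM (step 2.01, SE 0.32, adjusted p = 0.027). Its chosen transcript is short, at 459 bases, and reads spliced across Lpin2 introns numbered 236 and 449 at late night and 863 and 1644 at mid-day. Angptl4, a secreted inhibitor of lipoprotein lipase, rose from 11.4 and 13.1 to 30.2 and 38.9 RPKM (step 1.45, SE 0.25, adjusted p = 0.0398), and Abcd2, a peroxisomal transporter of very long-chain fatty acids, from 0.222 and 0.364 to 1.55 and 1.31 RPKM (step 1.28, SE 0.20, adjusted p = 0.0279). None of these 3 genes had overlapping groups. Slc7a2, a transporter of cationic amino acids, rose from 15.01 and 18.4 to 40.4 and 46.4 RPKM (step 1.35, SE 0.23, adjusted p = 0.0349).

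Sult1c2, a sulfotransferase, read 0.734 and 0.477 against 2.38 and 2.31 RPKM (adjusted p = 0.0347). Syt1, a calcium sensor of vesicle release, read 0.750 and 1.30 against 4.52 and 3.59 RPKM (adjusted p = 0.0143), from 7 to 39 reads. Maged2 (adjusted p = 0.0349) and the predicted gene Gm10804 (adjusted p = 0.0362) rested on 6 to 24 and 2 to 41 reads. The edgeR test on recovered reads did not call Syt1, Maged2, Gm10804 or Sult1c2, and DESeq2 did not call Syt1 or Maged2. Maged2 was also not called with RefSeq transcripts alone or with the transcript of the most reads. Its step was as low as 0.55 over the other settings. Reads spliced across Maged2 introns numbered 11 and 7 at late night and 12 and 13 at mid-day. Maged2, Abcd2 and the lower genes Fkbp14, Lrfn3, Dnmt3b, Lonrf3 and Slc34a2 lie outside the rule for named genes and are given as further calls. Of the higher genes of this and the previous 2 paragraphs, all but Clec2h lost their calls without 1 or more of CT23, CT29, CT47 and CT53, with adjusted p up to 0.302, and Angptl4 and Slc7a2 also without CT41 or CT65.

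Thra (thyroid hormone receptor alpha) was called higher through a transcript that shares 10.5% of its exon bases with the oppositely oriented Nr1d1. That transcript read 8.61 and 10.8 RPKM at late night and 32.9 and 53.2 RPKM at mid-day (step 2.06, adjusted p = 0.0285). Its own spliced reads went the other way, 83 and 92 at late night against 59 and 64 at mid-day, as did its introns (step -0.95, adjusted p = 0.45). With RefSeq transcripts alone the step of Thra was -0.46 and not called (adjusted p = 0.557). The counts of called and higher genes given here include Thra.

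Ppard, which encodes the lipid-sensing receptor PPAR delta (mm9, chr17:28369711-28438414), fell from 26.4 and 18.2 RPKM to 2.85 and 3.71 RPKM (step -2.58, SE 0.33, adjusted p = 0.00765), a 5.97-fold drop. Cdkn1a, the cell cycle inhibitor p21, fell from 10.9 and 8.81 RPKM to 2.35 and 0.842 RPKM (step -2.40, SE 0.34, adjusted p = 0.014). Both late night libraries of each gene lay above both mid-day ones, and at CT17 Ppard had already returned to 9.58 and 18.0 RPKM. The Ppard call was lost without CT23, CT29 or CT53 (adjusted p up to 0.116), and that of Cdkn1a without CT23, CT47 or CT53 (up to 0.129).

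Clic3, of the chloride intracellular channel family, had the largest downward step: 14.4 and 20.6 RPKM at late night (68 and 96 reads) against 1.84 and 0.888 RPKM at mid-day (8 and 4 reads; step -3.30, SE 0.32, adjusted p = 0.00108). Slc34a2, a sodium-phosphate cotransporter, read 1.44 and 2.31 against 0.179 and 0.0385 RPKM (adjusted p = 0.00594). Elovl3, an elongase of very long-chain fatty acids (mm9, chr19:46206389-46210184), fell from 120 and 156 RPKM to 39.2 and 38.1 RPKM (step -1.81, SE 0.30, adjusted p = 0.0334). The homeobox gene Pitx3 lies tail to tail with Elovl3 on the other strand (mm9, chr19:46210176-46222815) and read 10.9 and 14.7 RPKM against 1.09 and 0.934 RPKM (step -3.13, SE 0.25, adjusted p = 0.000453). No read in any of the 8 libraries was spliced across a Pitx3 intron, while 281 to 1485 were spliced across Elovl3 introns in the 4 libraries, and the part of reads running on from Elovl3 in the Pitx3 values was not tested. Clic3 and Pitx3 kept their calls without any single library, Slc34a2 lost its call without CT53 (adjusted p = 0.0868), and Elovl3 without CT23, CT29, CT47 or CT53 (up to 0.268).

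Of 11 measured genes of glycogen metabolism 2 fell, Ppp1r3b and Ppp1r3c, and the list's median step was 0.06. Ppp1r3b and Ppp1r3c encode subunits that bring protein phosphatase 1 to glycogen, where it activates glycogen synthase. Ppp1r3b read 58.3 and 63.3 RPKM at late night and 23.9 and 22.3 RPKM at mid-day (step -1.38, SE 0.23, adjusted p = 0.0334), and Ppp1r3c read 25.0 and 31.8 against 10.8 and 9.61 RPKM (step -1.43, SE 0.24, adjusted p = 0.0349). The other 9 members were not called; among them Pygl, glycogen phosphorylase, had a step of -0.16, Ugp2, which makes UDP-glucose, 0.60, the glycogen-binding Stbd1 0.81 and Phka2, a subunit of phosphorylase kinase, 0.55. Ppp1r1b (DARPP-32), an inhibitor of the same phosphatase, fell from 14.1 and 12.3 to 4.20 and 4.62 RPKM (step -1.48, SE 0.23, adjusted p = 0.027), with 14.9% of its exon bases shared with 1700003D09Rik. These 3 calls were lost without CT23, CT29, CT47 or CT53 (adjusted p up to 0.295), and that of Ppp1r3b also without CT41 or CT65.

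Nat8f5, an acetyltransferase-like gene, fell from 11.2 and 16.4 to 3.55 and 3.93 RPKM (adjusted p = 0.0234). Insc, known from the orientation of the mitotic spindle, read 5.72 and 5.78 against 2.05 and 1.76 RPKM (adjusted p = 0.027). Dnmt3b, a de novo DNA methyltransferase, read 1.48 and 1.37 against 0.458 and 0.266 RPKM (adjusted p = 0.0234). Lonrf3 read 0.886 and 0.863 against 0.113 and 0.0981 RPKM (adjusted p = 0.00765), Lrfn3 5.64 and 5.72 against 2.32 and 2.33 RPKM (adjusted p = 0.0488), and Fkbp14, a prolyl isomerase of the endoplasmic reticulum, 2.22 and 2.42 against 0.769 and 0.929 RPKM (adjusted p = 0.0499). None of these 6 genes had overlapping groups, and each lost its call without 1 or more of CT23, CT29, CT47 and CT53 (adjusted p up to 0.404). Lrfn3 and Fkbp14 also lost theirs without CT41 or CT65. Fkbp14 rested on 8 to 27 reads per library of the step and was called in 7 of 20 other settings, in neither of the count tests, with steps from -1.47 to -0.40.

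**Figure D3:**
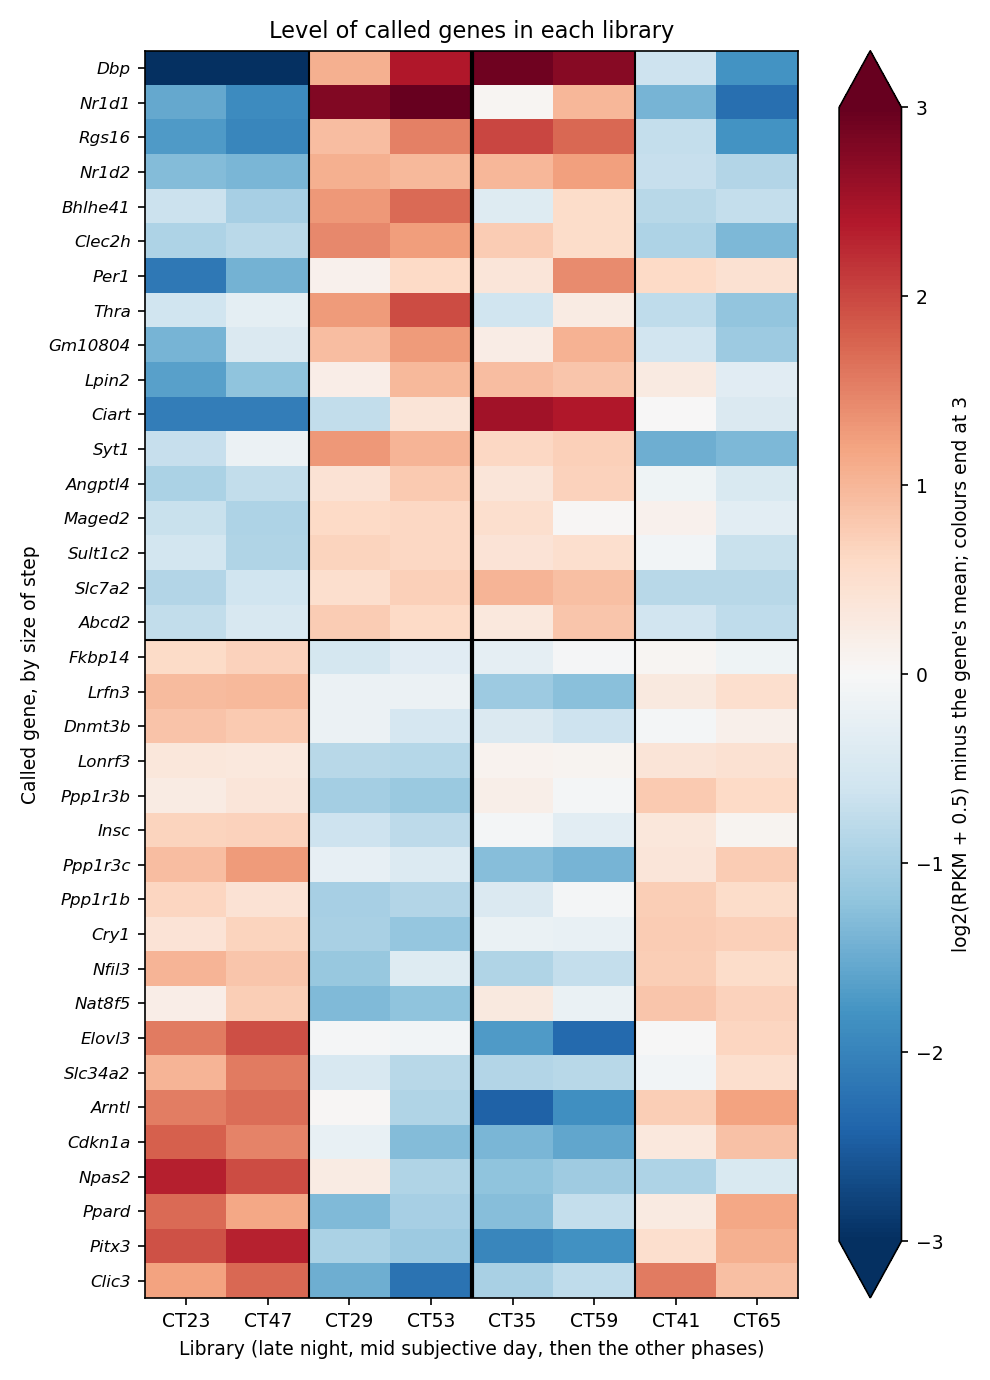
Level of 36 of the 39 called genes (rows, by size of step) in each of the 8 libraries (columns), as log2(RPKM + 0.5) minus the gene's mean over the libraries, red above and blue below it. The first 2 columns are late night and the next 2 mid-day. Of all 19 higher genes 10 had their highest phase mean at CT5 and 9 at CT11, and of all 20 lower genes 15 had it at CT23 and 5 at CT17.

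The called genes were also placed among the other phases. Among the 19 higher genes, CT5 was the phase of highest mean for 10 and CT11 for 9, and the lowest phase was CT23 for 13 and CT17 for 6. Among the 20 lower genes, the highest phase was CT23 for 15 and CT17 for 5, and the lowest phase was CT5 for 9 and CT11 for 11. Dbp, Rgs16 and Ciart belong to those still rising at CT5, and Arntl and Elovl3 to those still falling. These phases are descriptions of 2 libraries each.

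Cholesterol synthesis and uptake had 0 of 24 called by limma (3 at an unadjusted p under 0.05), 13 members positive and 1 negative on both days, and a median step of 0.24, while 30.5% of all genes tested were positive and 25.3% negative on both days. The abundant Sc5d, a desaturase of sterol synthesis, had a step of 0.27. The list of fatty acid oxidation with targets of PPAR alpha had 1 of 27 called (Angptl4) and 8 at an unadjusted p under 0.05. Of its members 13 were positive and 1 negative on both days, with a median of 0.20. The most abundant of them, Fabp1, had a step of 0.34, whereas the omega-hydroxylase Cyp4a14 went from 16.6 and 46.4 RPKM to 139 and 178 RPKM (step 2.48, SE 0.57) and was not called (adjusted p = 0.154). Fatty acid and triglyceride synthesis had Lpin2 up and Elovl3 down among 27 (5 at an unadjusted p under 0.05), with Scd1 at -0.06 and Acsl1 at -0.11.

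Bile acid synthesis and transport had 0 of 22 called (6 at an unadjusted p under 0.05), with 10 members positive and 8 negative on both days and a median step of 0.06. The highest step of this list was that of Slco1a4 (1.13, not called) and the lowest that of Cyp7a1. Cyp7a1, the rate-limiting enzyme of bile acid synthesis, read 28.0 and 68.4 RPKM at late night and 13.1 and 22.2 RPKM at mid-day, groups that did not overlap, with a step of -1.33 that was not called (adjusted p = 0.318). Gluconeogenesis had 0 of 15 called (1 unadjusted) and Pck1, its cytosolic entry enzyme, read 111 and 205 against 247 and 534 RPKM (step 1.26, adjusted p = 0.35). Glycolysis had 0 of 17 called (2 unadjusted) and insulin and IGF signalling 0 of 19 (4 unadjusted). Glucocorticoid-induced genes had 2 of 19 up (Per1 and Angptl4) and 1 down (Cdkn1a), with 9 at an unadjusted p under 0.05. Errfi1 was at 0.95 and Tat at -0.46, neither of them called. Cyp4a14, Cyp7a1 and Pck1 were singled out after their values were seen.

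Genes of protein folding lay on the negative side without a call. Cytosolic chaperones and heat shock factor targets had 16 of 22 members negative and 1 positive on both days, a median step of -0.37 and 0 calls (6 at an unadjusted p under 0.05). Hspa8 read 381 and 260 RPKM at late night and 190 and 275 RPKM at mid-day, and Hsp90ab1 280 and 336 against 193 and 291 RPKM, so in both genes the groups overlapped. Folding genes of the endoplasmic reticulum had 15 of 24 negative and 3 positive on both days (median -0.27, 0 called, 4 unadjusted). Ribosome biogenesis had 15 of 28 negative and 3 positive (median -0.14, 0 called, 2 unadjusted).

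The remaining lists held few calls. Cytochrome P450 families had 0 of 35 called (1 unadjusted; median 0.03), heme and P450 reductase genes 0 of 17 (0 unadjusted), and phase II enzymes 1 of 36, Sult1c2. NRF2 targets (0 of 19), NAD metabolism (0 of 18), amino acid breakdown with the urea cycle (0 of 28) and RNA binders (0 of 26) had no member at an unadjusted p under 0.05. Acute phase proteins had 0 of 24 called (4 unadjusted), iron handling 0 of 20 (1), autophagy 0 of 27 (2) and immediate early genes 0 of 19 (5). Amino acid transporters had Slc7a2 as 1 of 15, and cell cycle genes Cdkn1a as 1 of 14.

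**Figure D4:**
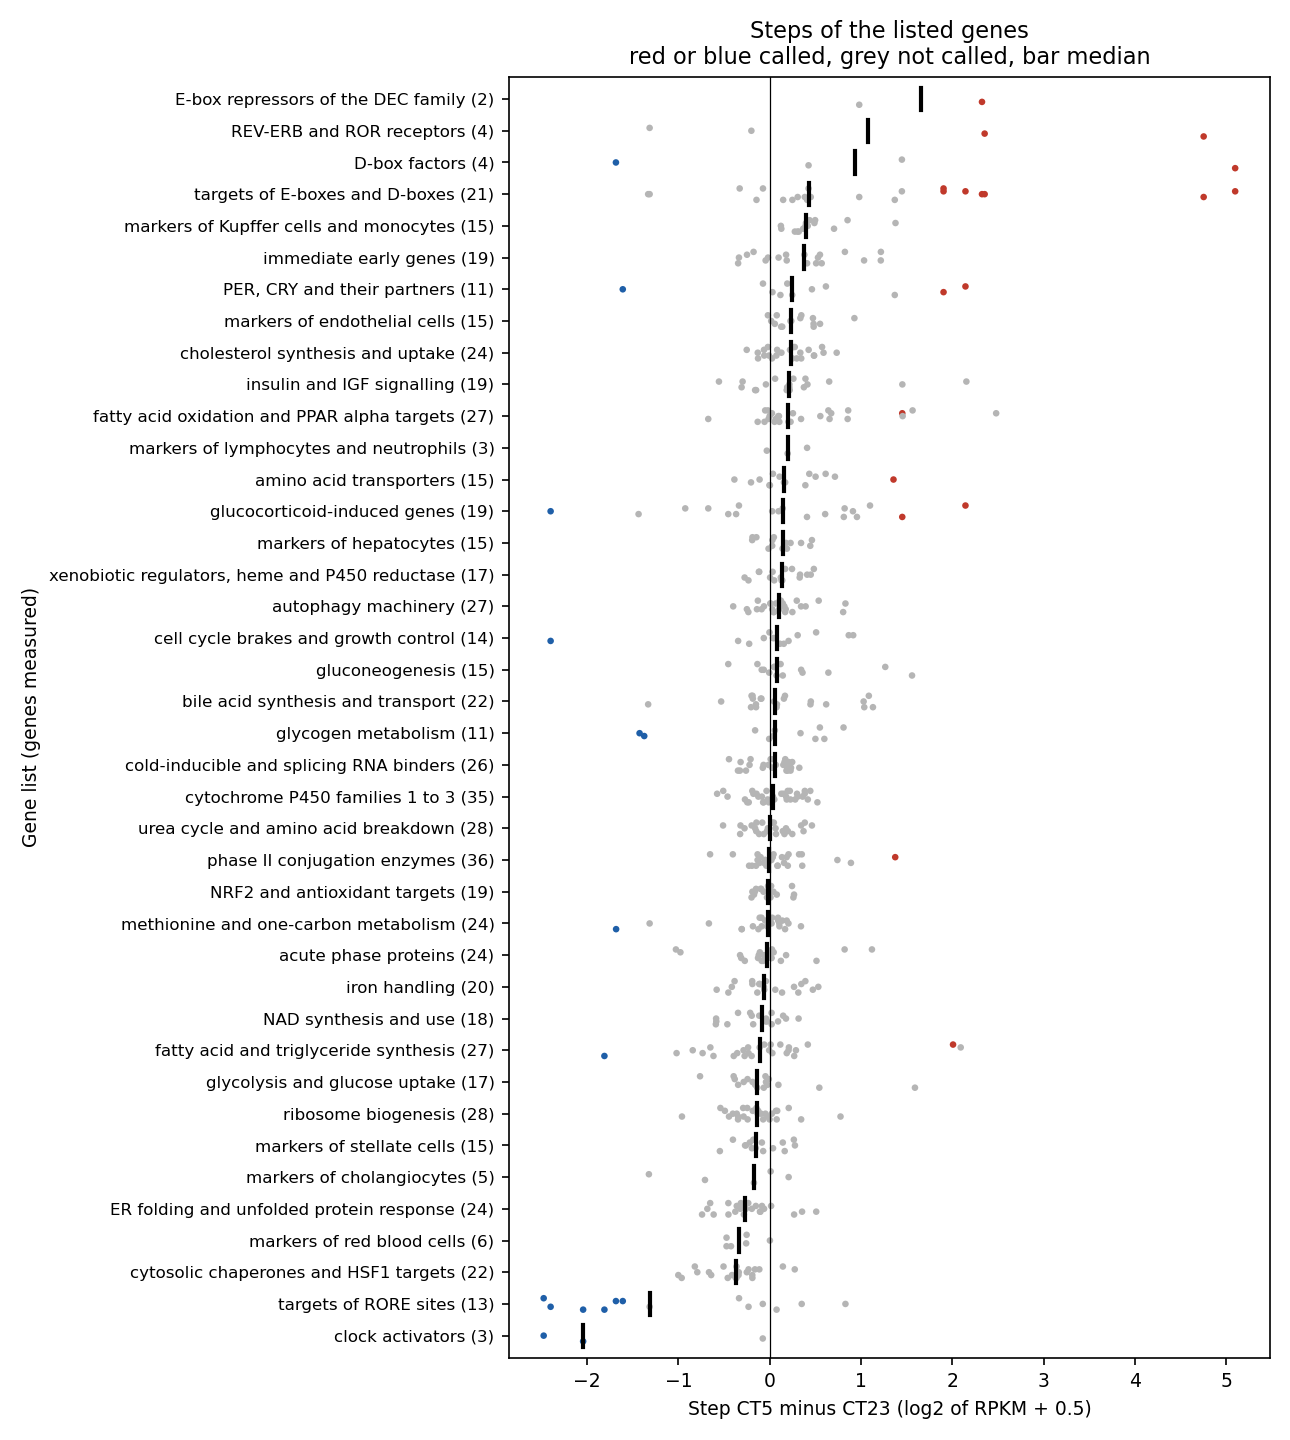
Steps from late night to mid-day of the measured members of each gene list, in log2 of RPKM + 0.5 (horizontal), with the number of measured genes in brackets; red and blue points were called, grey points were not, and the bar is the list's median. The RORE targets (median -1.32) and activators (-2.04) lie lowest and the DEC family and REV-ERB and ROR lists highest, while most metabolic lists centre near 0.

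Markers of other liver cells were read beside these results. Markers of Kupffer cells and monocytes were positive on both days in 10 of 15 genes and negative in 0, with a median step of 0.40 and 0 calls (3 at an unadjusted p under 0.05). Their summed level was 152 and 187 RPKM at late night and 230 and 219 RPKM at mid-day. Clec4f, a defining Kupffer marker, had a step of 0.13, and C1qb 0.39. Steps in this list ran from 0.12 to 1.38. The highest was that of Timd4, at 1.20 and 1.64 RPKM at late night and 4.74 and 4.18 RPKM at mid-day (adjusted p = 0.0692, not called). Endothelial markers were positive on both days in 7 of 15 genes (0 negative, median 0.24), summing to 175 and 193 against 204 and 241 RPKM. Stellate markers were negative in 7 of 15 (2 positive, median -0.16), at 268 and 242 against 235 and 216 RPKM. Red cell markers were negative in 4 of 6 (0 positive, median -0.34), cholangiocyte markers in 3 of 5 and lymphocyte or neutrophil markers in 0 of 3, and hepatocyte markers had a median of 0.14. No marker of any of these lists was called.

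Introns, whose reads come largely from transcripts not yet fully spliced, gave a second reading of the same step in the same libraries. Intron values of 5837 genes were tested, with a pseudocount of 0.05 RPKM, and 52 were called (0.891%), 22 higher (0.377%) and 30 lower (0.514%), with 331 at an unadjusted p under 0.05 and a median of -0.093. Of the 39 genes called in exons, 23 had tested introns, 22 of which moved the same way as the exons on both days, Thra being the exception. Introns were called in 7 of 10 such higher genes and 11 of 13 lower ones. Nr1d1 introns went from 0.447 and 0.344 RPKM to 8.22 and 15.1 RPKM (intron step 4.66, adjusted p = 7.95e-11), close to its exon step of 4.75. Rgs16 introns held 2 and 2 reads at late night and 31 and 95 at mid-day (intron step 3.97). Arntl, Npas2 and Ppard had intron steps of -2.13, -1.86 and -2.59, and Elovl3 introns had a step of -3.32 against -1.81 in exons. Without 1 library, the count of 52 fell most for CT23 (28), CT35 (29), CT59 (31) and CT47 (33).

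**Figure D5:**
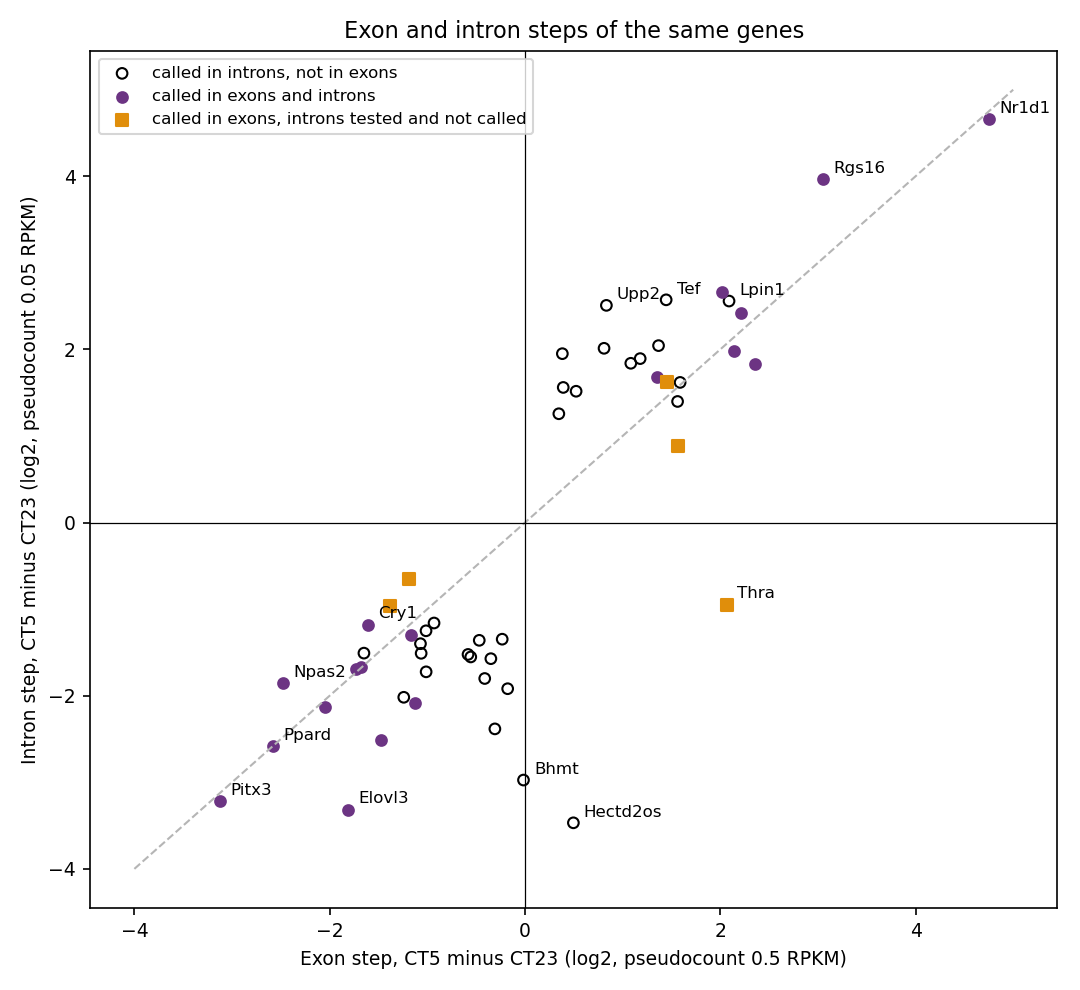
Exon step (horizontal) and intron step (vertical) from late night to mid-day, in log2, for genes called in exons with tested introns (18 filled circles called in both, 5 squares not called in introns) and 30 genes called in introns alone (open circles). The dashed line marks equal steps, and Bhmt, Hectd2os and Thra lie far below it.

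A further 30 genes were called in introns while their exons were tested and not called, and in 11 of them the exon step was under 0.5 in size. Among the largest upward was the D-box factor Tef (intron step 2.57, adjusted p = 1.15e-05, from 6 and 2 to 25 and 28 reads). The Lpin2 paralog Lpin1 was another (2.56, adjusted p = 0.000699, from 53 and 59 to 573 and 296 reads). Their exon steps, 1.45 and 2.09, were not called. Gm10804, which was called in exons as well, had an intron step of 2.66. Whether intron and exon steps differ was tested by fitting their difference in the same design, a test added after the data were seen. Of 5621 genes with both, 3 were called (0.0534%), Hectd2os, Bhmt and Thra, and 152 had an unadjusted p under 0.05.

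Bhmt, betaine-homocysteine methyltransferase, which remakes methionine from homocysteine (mm9, chr13:94386846-94407713), was 1 of these 3 genes. Its introns held 596 and 703 reads at late night (6.03 and 7.18 RPKM) and 61 and 89 reads at mid-day (0.667 and 0.942 RPKM), an intron step of -2.97 (SE 0.45, adjusted p = 6.8e-06). In all 4 libraries of the other phases the introns were above either mid-day library, at 8.37 to 16.9 RPKM. Its exons read 327 and 430 RPKM at late night and 415 and 331 RPKM at mid-day, overlapping groups with a step of -0.02. The difference of intron and exon step was -2.96 (SE 0.40, adjusted p = 0.00736). The antisense gene Gm15622 shares 9.03% of the exon bases of Bhmt, and no strand setting is given in the sources used here, so that reads of either strand cannot be told apart. Hectd2os introns held 77 and 55 reads against 4 and 3 (intron step -3.47, adjusted p = 2.14e-09), with an exon step of 0.50 in a transcript of which 76.4% of the exon bases are shared with Hectd2.

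The step was also compared between the days. No gene's step differed by limma (0 called of 10930, 0%; 214 at an unadjusted p under 0.05), in a fit with 2 residual degrees of freedom, and edgeR and DESeq2 were not run on this difference. The smallest p-values were those of Ube2l6, Gm9920 and Cycs. Ube2l6, an enzyme of ISG15 conjugation, read 29.8 RPKM at CT23 and 129 RPKM at CT29, but 66.5 RPKM at CT47 and 23.7 RPKM at CT53. Cycs (cytochrome c) read 8.61 and 2.74 RPKM on the first day and 6.26 and 14.3 RPKM on the second. Over all genes, 4838 of 10930 had steps of opposite sign on the days.

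The number of calls depended on the libraries. Leaving out 1 of the 4 libraries of the step gave 16 calls without CT23, 14 without CT29, 14 without CT47 and 9 without CT53, and leaving out CT35 or CT59 gave 62. Dbp, Nr1d1, Nr1d2, Clec2h, Clic3 and Pitx3 were called whichever library was left out.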

How the data were processed

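The step rests on 4 of 8 liver libraries, each of RNA pooled from 3 animals, and the other 4 enter the estimate of the spread. The genome build was mm9, per the submitters' processing notes. The deposited transcript tables give a lower and an upper value, named only min and max per the file headers, which scale as RPKM; the sources used here name neither the program nor what separates the values. Each deposited junction table lists, unscaled, a count of spliced reads at every high-quality RUM junction, per the file headers. RUM's version and any strand setting are not stated there.

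The lower value was used. Between 99.93 and 99.99% of a library's transcripts had a whole number of reads (tolerance 0.1 read), which gave the reads behind each value. Of 115699 transcripts 79709 (68.89%) carried a gene name, through RefSeq or Vega identifiers, giving 24353 genes, and each gene was represented by the transcript of the largest summed value. Genes with at least 20 reads in at least 2 libraries were fitted with limma 3.58.1 in R 4.3.3 (mean trend, robust variances) on log2(RPKM + 0.5), with the 4 phases as groups, which leaves 4 residual degrees of freedom. Adjustment followed Benjamini and Hochberg, across every gene in the fit. Introns free of exons of other genes were fitted the same way with a pseudocount of 0.05 RPKM. The count tests on recovered reads called 50 genes (edgeR 4.0.16, quasi-likelihood) and 112 (DESeq2 1.42.0), of which 33 and 35 are among the 39. On simulated data for the 10930 genes of the exon fit, 200 genes were changed, none of them taken from the genes of fewest reads. Of the 2-fold changes 29% were recovered and of the 4-fold changes 95%, beside 12 false calls. On 5837 simulated intron sets, with 200 changed in the same way, the shares were 14% and 92%, beside 6 false calls.

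The libraries, gene lists and tests were chosen with earlier results of these data known. Named are all measured clock genes; the 15 largest called steps each way with a mean of at least 1 RPKM; up to 3 called and 2 abundant uncalled members of each list; the 5 largest called intron steps each way; and the 3 smallest p-values of the day difference. Exceptions are stated, and some genes that the rule selects are not reported here. Lists were drawn from general knowledge of liver and share members. Promoter windows are from RefSeq on GRCm38.p6, whose coordinates are not mixed with those of mm9. Alternatives covered pseudocounts, filters, scaling, the upper value, the count tests, the libraries fitted, the transcript per gene and each library left out.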

Additional observations from a re-analysis of the deposited data

How the results depend on the processing

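The 39 exon calls ranged from 9 to 62 when 1 library was left out, lowest without CT53 and highest without CT35 or CT59, and the 52 intron calls ranged from 28 to 58. Exon calls numbered 4 with no filter on low reads (19018 genes tested), 112 with DESeq2, 89 with only the 4 libraries of the step in the fit, 71 with RefSeq transcripts alone and 67 with the transcript of the most reads, a setting chosen after the data were seen. Intron calls numbered 10 with no filter. The difference of intron and exon steps gave 1 call in place of 3 at an intron pseudocount of 0.5 RPKM, and 2 to 4 without 1 library. The cause of these shifts was not tested. The other settings (pseudocounts of 0.1 and 1 RPKM, at least 50 reads, TMM, equal medians, the upper value, edgeR) gave 35 to 50 exon calls, and other intron pseudocounts or scaling 44 to 45 intron calls. The 1 step that reversed was that of Thra, -0.46 with RefSeq transcripts alone. Nr1d1, Nr1d2 and Pitx3 were called in all 21 alternative settings. A fit with a replicate block for the day gave 34 exon calls, 33 of them shared (Angptl4, Slc7a2, Ppp1r3b, Ppp1r3c, Lrfn3 and Fkbp14 were not), and 77 intron calls; libraries of the same day shared deviations at correlations of -0.395 to 0.314 over phase pairs, so the day is not taken to pair them. No difference between the days was called with a pseudocount of 1 RPKM, no filter or equal medians. With 2 libraries per phase, changes of 2-fold were mostly out of reach, as the recovery of 29% on simulated data shows.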

Other observations

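Another 44 genes changed at least 2-fold on both days without passing the test, 26 upward and 18 downward, and the ones given here were chosen after their values were seen. Mfsd2a, a transporter of lysophospholipids, read 0.721 and 1.78 RPKM at late night and 8.32 and 7.88 RPKM at mid-day (step 2.37, adjusted p = 0.122). Trib3, a pseudokinase gene of the stress response, read 0.610 and 1.39 against 3.96 and 8.77 RPKM (step 2.15, adjusted p = 0.0845). Igfbp1, which encodes a binding protein of insulin-like growth factors, read 2.33 and 2.71 against 5.63 and 10.5 RPKM (step 1.45, adjusted p = 0.342), and Hdc, histidine decarboxylase, 9.67 and 8.85 against 21.5 and 28.5 RPKM (step 1.37, adjusted p = 0.169). Downward, Bcl6, a transcriptional repressor, read 14.2 and 33.7 against 5.34 and 11.2 RPKM (step -1.44, adjusted p = 0.299). G0s2, an inhibitor of the triglyceride lipase ATGL, read 52.3 and 67.9 against 11.9 and 29.95 RPKM (step -1.63, adjusted p = 0.294), and Gys1, the glycogen synthase known from muscle, 2.24 and 2.59 against 0.866 and 0.837 RPKM (step -1.11, adjusted p = 0.186).

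Some genes were called in introns and not in exons. Upp2, a uridine phosphorylase of liver, had 321 and 315 intron reads at late night and 1707 and 1852 at mid-day (intron step 2.51, adjusted p = 8.57e-05), against an exon step of 0.83 (adjusted p = 0.505). Cyp2a5, a cytochrome P450 that oxidises coumarin, had intron values of 3.95 and 6.91 against 14.6 and 28.4 RPKM (intron step 1.95, adjusted p = 0.0209) and an exon step of 0.38 (adjusted p = 0.98). Abcg5, part of the sterol exporter, had an intron step of 1.84 (adjusted p = 0.00992) and Hsd17b6 a step of 1.89 (adjusted p = 0.00385). Downward, Smagp had 377 and 254 intron reads against 71 and 71 (intron step -1.92, adjusted p = 0.00514) with an exon step of -0.18. For Upp2, Cyp2a5 and Smagp the difference of intron and exon steps was not called (adjusted p of 0.243 for Upp2, 0.775 for Cyp2a5 and 1 for Smagp). All of these genes were chosen after their values were seen.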
